A study of Homo sapiens with 12 samples.

Results

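Collagen chain genes encode the polypeptides that assemble, in threes, into the triple-helical proteins of the extracellular matrix. They were taken as the genes whose single platform symbol has the form COL, number, A, number, with antisense names and pseudogenes left out. Of 22411 genes with 1 symbol on the array, 41 were collagen chains. Of these, 24 had a mean log2 signal over all arrays above 4.54, the floor used for testing, which is the upper limit of the lowest tertile of all genes. The other 17 lay below it. COL3A1 and COL26A1 share their features with a second symbol, and COL17A1 was not found under a single symbol, so these 3 were not analysed here.

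The 12 arrays were made from MDA-MB-231, an established human triple-negative breast cancer line with mesenchymal traits. Cells were transfected for 48 h with 50 nM of an oligonucleotide in Lipofectamine RNAiMAX, and each of the 4 groups had 3 arrays. The control group received Negative Control #1. The archetype group received the mirVana mimic of unshifted miR-183-5p, written 0|0 in the labels. The minus2 and plus2 groups received customized mirVana mimics of isomiRs, whose 5′ and 3′ ends both lie 2 nucleotides upstream (minus2) or downstream (plus2). The labels name replicates but no cultures, and the p-values below therefore rest on variation among these arrays that may be technical.

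Collagens fall into families by the structure that they build. Fibrillar chains form the striated fibrils of connective tissue, type IV chains the sheet of basement membranes, type VIII chains hexagonal networks, and type VI chains beaded microfilaments. Fibril-associated chains sit on the surface of fibrils, and transmembrane chains carry their triple helix outside the cell. In breast tumours, fibroblasts are a main source of collagen besides the cancer cells. A microRNA lowers transcripts that pair with its seed, bases 2 to 8 from the 5′ end, so shifted ends give each mimic its own seed.

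The mimic sequences are shown because the shift in the seed is what distinguishes the treatments. The isomiR sequences are those of the labels, with T written as U, and the archetype is the RefSeq entry of hsa-miR-183-5p (GRCh38.p14, chr7:129774967-129774988, minus strand). Capitals mark the seed.
minus2: uGUAUGGCacugguagaauuca
archetype: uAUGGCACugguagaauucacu
plus2: uGGCACUGguagaauucacugu
Each mimic is 22 nt long. The archetype shares a run of 20 nt with either isomiR, and minus2 and plus2 share 18 nt. The 3 seeds all differ.

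All 6 mesenchymal-like markers fixed for this line, among them VIM and CD44, lay above the floor on every array. Of 10 fibroblast markers other than collagens, 2 (PDGFRB and FBLN1) had a mean above the floor. The mean of that list lay between 4.24 and 4.33 log2 units on control arrays, 4.22 and 4.33 on archetype arrays, 4.26 and 4.31 on minus2 arrays, and 4.32 and 4.39 on plus2 arrays. The other 8, DCN, LUM, FAP and PDGFRA among them, averaged below the floor over the 12 arrays, with LUM at 4.27 in control and 4.56 with plus2. PDGFRB averaged 5.13 in control and 5.47 with plus2. These members had the largest rises of the list with plus2, and it did not move as a whole. DCN (4.17 in control and 4.28 with plus2) and FBLN1 (4.59 and 4.67) were higher by less. PDGFRA (3.95 and 3.89), THY1 (4.33 and 4.26) and FAP (4.07 and 4.02) were lower with plus2, and POSTN, MFAP5 and PDPN were nearly level. The mesenchymal-like list had its highest mean on control arrays (13.64 to 13.66) and its lowest on plus2 arrays (12.93 to 12.98). Each member averaged lower with plus2 than in control, but by unequal amounts. MSN averaged 15.31 in control and 13.10 with plus2, and VIM 13.80 and 13.59. AXL was higher with the archetype (15.66) than in control (15.40). Above the floor were also 3 of 7 luminal, 1 of 5 endothelial, 3 of 5 smooth muscle and 3 of 5 white blood cell markers. The endothelial list averaged 4.49 to 4.59 on plus2 arrays and 4.35 to 4.47 on the other 9. Its member above the floor, KDR, averaged 4.95 in control and was higher under every mimic (archetype 5.31, minus2 5.30, plus2 5.57). The rest of that list differed little between control and plus2. CDH5 and VWF were slightly lower with plus2 (VWF 4.41 in control and 4.39), and PECAM1 and TEK slightly higher (TEK 4.29 in control and 4.34). The part of these markers in the collagen differences was not tested. In these bulk extracts a change in the number of cells that express a gene cannot be told apart from a change in RNA per cell. Replicate arrays correlated with Pearson's r of at least 0.997 across the genes tested, which are not independent replicates.

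COL8A1 and COL12A1 rose by far more than the other chains, and the 3 mimics ranked differently for each. COL8A1, the alpha-1 chain of network-forming type VIII collagen, rose most with the archetype, less with minus2, and was not called with plus2. COL12A1, the chain of fibril-associated type XII collagen, rose with every mimic and most with plus2. No difference among the other 22 chains above the floor exceeded 0.27 log2 units in any of the 6 pairwise comparisons. Here a chain is said to have risen or fallen where limma's adjusted p (Benjamini-Hochberg over 14940 genes) was under 0.05.

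COL8A1 gave log2 signals of 8.54, 8.56 and 8.46 on the control arrays. With the archetype the signals were 9.98, 9.76 and 9.95. With minus2 they were 9.49, 9.59 and 9.48, and with plus2 8.54, 8.77 and 8.86. The archetype and minus2 arrays all lay above every control array and did not overlap each other, whereas the lowest plus2 array lay within the control range. Relative to control the gene rose by 1.38 ± 0.08 log2 units (SE) with the archetype (2.60-fold, limma adjusted p = 3.6e-07), which ranked 31 among the absolute changes of 14940 genes. With minus2 it rose by 1.00 ± 0.08 (2.00-fold, adjusted p = 4.4e-06).

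With plus2 the difference of COL8A1 from control was 0.20 ± 0.08 log2 units, with a 95% interval of 0.02 to 0.38 and an adjusted p of 0.085 (limma). Whether it was called rested on 1 library: without plus2 replicate 1 the difference was 0.29, with an adjusted p of 0.011. The mimics were also compared directly. For COL8A1, minus2 minus archetype gave -0.38 ± 0.08 log2 units (adjusted p = 0.0056). Plus2 minus archetype gave -1.18 ± 0.08 (adjusted p = 1.8e-06, rank 23 of 14940 genes) and plus2 minus minus2 -0.80 ± 0.08 (adjusted p = 1.2e-05).

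**Figure D1:**
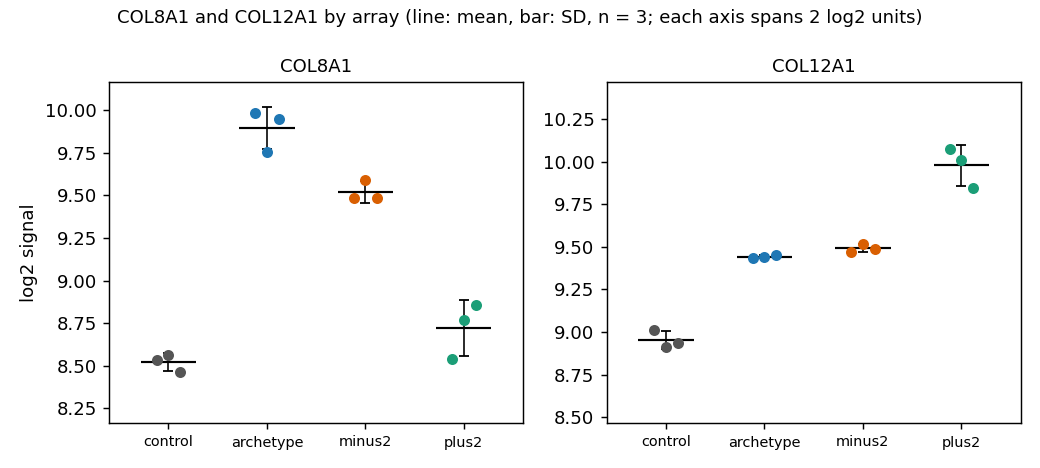
The log2 signal (y axis) of COL8A1 and COL12A1 on each of the 12 arrays, by group (x axis), with the mean as a line and the SD of 3 arrays as a bar. COL8A1 was highest with the archetype, at 9.90 on average, and COL12A1 was highest with plus2, at 9.98.

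COL12A1 forms a trimer of 1 kind of chain that binds along type I collagen fibrils. Its log2 signals were 9.01, 8.91 and 8.93 in control, and 9.44, 9.44 and 9.45 with the archetype. With minus2 they were 9.47, 9.52 and 9.49, and with plus2 10.08, 10.01 and 9.85. Every mimic array lay above every control array, and the plus2 arrays lay above those of both other mimics. The rises over control were 0.49 ± 0.06 log2 units (SE) with the archetype mimic, 0.54 ± 0.06 with minus2 and 1.02 ± 0.06 with plus2 (1.40, 1.45 and 2.03-fold, adjusted p at most 6.2e-05 by limma).

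The archetype and minus2 were not distinguished by COL12A1. Their difference was 0.05 ± 0.06 log2 units with a 95% interval of -0.07 to 0.17 and an adjusted p of 0.62 (limma), although the 3 minus2 arrays lay just above the 3 archetype arrays. Plus2 exceeded the archetype by 0.54 ± 0.06 and minus2 by 0.49 ± 0.06 (adjusted p = 3.5e-05 and 3.0e-05, limma). Levels of COL8A1 therefore ordered the groups as control, plus2, minus2 and archetype, with control and plus2 not separated. For COL12A1 the order was control, archetype, minus2 and plus2, with the archetype and minus2 not separated.

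Counted over the family, the share of collagen chains called was near or below that of all genes in each of the 6 comparisons. The chains were dimmer than the genes beside which they are set. Of the 14940 genes, 11205 had a mean above 5.56, the median over all genes before the floor, while most of the 24 chains lay below it. The part of signal level in these shares was not tested. With the archetype 6 of 24 chains were called against control, which is 25.0%, and 24.6% of all 14940 genes were called (14.3% rises and 10.3% falls). These were 4 rises (COL8A1, COL12A1, COL4A1 and COL4A2) and 2 falls (COL5A1 and COL7A1). The arrays of both groups did not overlap for 10 of 24 chains and for 41.2% of all genes. After centring the arrays or a second quantile normalisation the count was also 6, but as 3 rises and 3 falls. COL4A1 was no longer called, and COL6A3 (after centring) or COL13A1 (after quantile normalisation) was called as a fall. The median of the 24 differences was -0.02 log2 units, against 0.01 over all genes.

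With minus2 5 of 24 chains were called against control, which is 20.8%, while 29.4% of all genes were called (17.5% rises and 11.9% falls). COL8A1 and COL12A1 rose, and COL6A3, COL7A1 and COL18A1 fell. Arrays did not overlap for 11 of 24 chains and for 44.9% of all genes. The count was 3 without control replicate 3 or without minus2 replicate 3, and 8 without plus2 replicate 3, an array that enters through the shared estimate of the spread. The median of the chains was -0.01, against 0.01 over all genes.

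Plus2 gave the fewest calls, with 2 of 24 chains against control (8.33%), COL12A1 and COL4A5, both of which rose. Of all genes, 33.6% were called in that comparison (17.4% rises and 16.2% falls). Arrays did not overlap for 7 of 24 chains and for 42.8% of all genes. The count was 1 without control replicate 3 and 4 without plus2 replicate 1 or 2, and after centring the arrays COL5A1 was called as a fall besides the 2 rises. The median of the chains was 0.05, against 0.00 over all genes. At least 1.5-fold changes were called for 1 chain in each comparison with control (COL8A1 with the archetype and minus2, COL12A1 with plus2), and for 2.77% of all genes with the archetype mimic, 3.27% with minus2 and 4.83% with plus2.

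**Figure D2:**
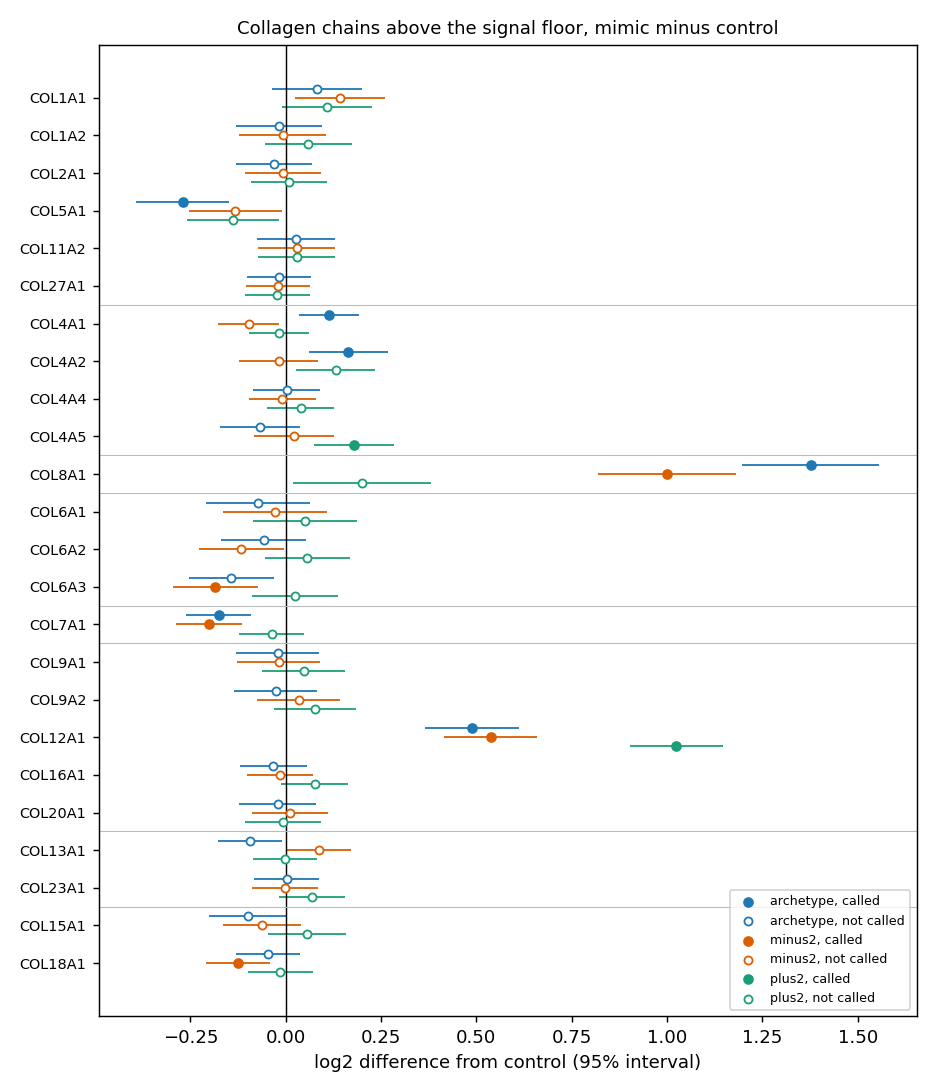
Log2 difference of each mimic from control (x axis, with the 95% interval) for the 24 collagen chains above the floor (y axis), ordered by family and divided by grey lines. Filled points passed the adjusted p threshold of 0.05. COL8A1 and COL12A1 stand apart, and the other 22 chains lie between -0.27 and 0.18.

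The direct comparisons of mimics gave similar shares. Between minus2 and the archetype 4 of 24 chains differed (16.7%, against 24.3% of all genes, 12.4% higher and 11.8% lower with minus2). COL13A1 was higher and COL4A1, COL4A2 and COL8A1 were lower with minus2. Arrays did not overlap for 9 of 24 chains and for 41.8% of all genes. Between plus2 and the archetype 7 differed (29.2%, against 28.9%, 13.0% higher and 15.9% lower with plus2). Arrays did not overlap for 12 of 24 chains and for 39.8% of all genes. There COL12A1, COL4A5, COL6A3, COL7A1 and COL15A1 were higher and COL8A1 and COL4A1 lower with plus2. The count was 3 without archetype replicate 1 and 4 without archetype replicate 3 or plus2 replicate 1. Between plus2 and minus2 8 differed (33.3%, against 38.7%, 17.8% higher and 20.9% lower with plus2), with no overlap of arrays for 12 of 24 chains and for 47.8% of all genes. COL12A1, COL4A2, COL4A5, COL6A2, COL6A3, COL7A1 and COL18A1 were higher and COL8A1 lower with plus2. That count was 4 without minus2 replicate 2 or plus2 replicate 3. At least 1.5-fold differences were called for no chain between minus2 and the archetype (2.86% of all genes), for COL8A1 between plus2 and the archetype (2.63%) and for COL8A1 between plus2 and minus2 (6.44%). A moderated F test of any difference among the 4 groups called 9 of 24 chains (37.5%, against 51.7% of all genes).

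**Figure D3:**
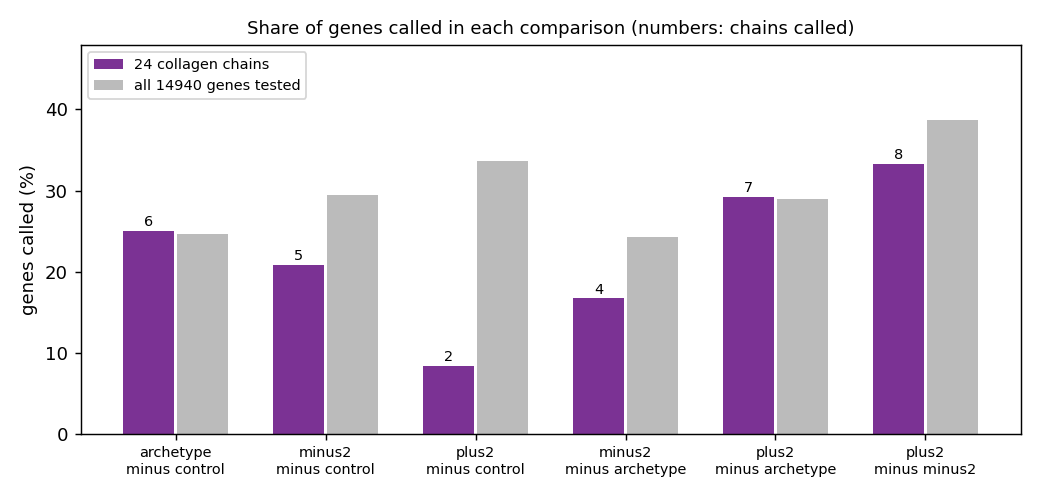
Percentage of genes called (y axis, adjusted p under 0.05) in each of the 6 pairwise comparisons (x axis), for the 24 collagen chains (purple) and all 14940 genes tested (grey), with the number of chains called above its bar. Shares of the chains run from 8.33% for plus2 minus control to 33.3% for plus2 minus minus2.

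Among type IV chains, which build the basement membrane sheet, COL4A1 and COL4A2 rose slightly with the archetype. Their products form the commonest type IV molecule, with more of the first chain than of the second. COL4A1 signals were 5.91, 5.89 and 5.91 in control and 6.05, 6.0 and 6.01 with the archetype. They were 5.80, 5.81 and 5.81 with minus2 and 5.92, 5.85 and 5.90 with plus2. The archetype arrays lay above all others, and the minus2 arrays below all others. The minus2 difference from control, -0.10 ± 0.04 log2 units, did not pass (adjusted p = 0.065, limma). It was called under 3 of 21 alternatives (adjusted p down to 0.036). The archetype exceeded control by 0.11 ± 0.04 log2 units (adjusted p = 0.039, limma) and minus2 by 0.21. The first of these calls was lost under 14 of 21 alternatives, including the omission of any 1 control, archetype or minus2 array (adjusted p up to 0.12). The second was kept under every alternative run. Plus2 minus archetype gave -0.13 ± 0.04 (adjusted p = 0.017), a call lost without archetype replicate 1, without plus2 replicate 2 and with 2 groups alone in the fit (up to 0.093).

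COL4A2 gave 6.39, 6.32 and 6.37 in control and 6.56, 6.49 and 6.53 with the archetype. With minus2 its signals were 6.39, 6.28 and 6.37, and with plus2 6.50, 6.43 and 6.55. The archetype and plus2 arrays lay above the control arrays, and the minus2 arrays overlapped them. The rise with the archetype was 0.16 ± 0.05 (adjusted p = 0.025), and it was lost without control replicate 2 or 3 or archetype replicate 1 or 3 (adjusted p up to 0.091). With plus2 the difference was 0.13 ± 0.05 with an adjusted p of 0.0502, and it was called under 5 of 21 alternatives, namely after quantile normalisation, with genes above the median signal, with the replicate block, and without minus2 or plus2 replicate 2 (adjusted p down to 0.019). COL4A2 was lower with minus2 than with the archetype (-0.18 ± 0.05, adjusted p = 0.015) and higher with plus2 than with minus2 (0.15 ± 0.05, adjusted p = 0.025). The first was lost without archetype replicate 1 or minus2 replicate 2 and the second under 5 of 21 alternatives, the omission of minus2 replicate 2 or plus2 replicate 1 or 3 among them. For COL4A1 the difference of plus2 from control was -0.02 ± 0.04. Whether the pair of genes differ in their response to plus2 was not tested.

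These genes lie head to head, and the stretch between them is printed because their transcripts are read from it in opposite directions. In RefSeq windows from 250 bases before to 50 after each start (GRCh38.p14), the windows of COL4A1 and COL4A2 share 226 bases, chr13:110307108-110307333. The sequence is given on the plus strand, the strand of COL4A2, with the 126 bases between the 2 annotated starts in capitals.
COL4A1 and COL4A2: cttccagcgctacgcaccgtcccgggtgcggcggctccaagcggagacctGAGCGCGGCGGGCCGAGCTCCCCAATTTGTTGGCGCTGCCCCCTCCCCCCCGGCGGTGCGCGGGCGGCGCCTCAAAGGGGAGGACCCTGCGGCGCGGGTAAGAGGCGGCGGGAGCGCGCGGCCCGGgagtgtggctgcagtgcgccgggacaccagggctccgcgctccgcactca
The capitals hold 1 CCAAT and 1 GGGCGG, the core letters of the CCAAT box and of Sp1 sites, searched on both strands and not overlapping each other. Of 27305 promoter windows, 35.7% hold CCAAT and 44.6% hold GGGCGG. Among the 30 collagen chains with a window in the table these were 9 and 18. A match describes the letters and is not evidence of binding.

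The other type IV genes are paired in the same way. COL4A5 and COL4A6 have windows that share 121 bases, and those of COL4A3 and COL4A4 share 82. Neither pair could be compared as a pair, since COL4A3 and COL4A6 lay below the floor. COL4A5, whose chain assembles with those of COL4A3 and COL4A4 or with that of COL4A6, gave 5.42, 5.39 and 5.29 in control. Its signals were 5.35, 5.28 and 5.26 with the archetype mimic, 5.45, 5.35 and 5.36 with minus2, and 5.54, 5.53 and 5.57 with plus2. All plus2 arrays lay above the other 9 arrays. COL4A5 rose by 0.18 ± 0.05 with plus2 over control (adjusted p = 0.013, limma), by 0.25 ± 0.05 over the archetype (adjusted p = 0.0024) and by 0.16 ± 0.05 over minus2 (adjusted p = 0.022). Without control replicate 3 the first adjusted p was 0.054, and the last call was lost without minus2 replicate 2 or 3 or plus2 replicate 3. COL4A4 stayed between 4.59 and 4.72 on all arrays and was not called in any comparison.

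Of 6 fibrillar chains above the floor, COL5A1 was the 1 that passed a test against control with all arrays and the main settings, and COL1A1 passed under some alternatives given below. Type V collagen is built into fibrils of type I and limits their width. COL5A1 signals were 6.35, 6.30 and 6.34 in control, 6.09, 6.11 and 5.98 with the archetype mimic, 6.22, 6.21 and 6.16 with minus2, and 6.23, 6.27 and 6.08 with plus2. Every mimic array lay below every control array. With the archetype the fall was -0.27 ± 0.06 log2 units (SE, adjusted p = 0.0038, limma), kept under every alternative run. The differences of -0.13 ± 0.06 with minus2 and -0.14 ± 0.06 with plus2 did not pass (adjusted p = 0.10 and 0.077). The minus2 difference was called without plus2 replicate 3 and with 2 groups alone in the fit (adjusted p of 0.041 at the lowest). The plus2 difference was called without plus2 replicate 2, with the replicate block and after centring the arrays (0.043 at the lowest).

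The chains of type I collagen, the main fibrillar collagen of the body, had signals not far above the floor. COL1A1 had group means of 5.37 in control, 5.45 with the archetype mimic, 5.51 with minus2 and 5.48 with plus2, and it was not called against control (adjusted p of 0.070 with minus2 at the lowest). With minus2 COL1A1 was called as a rise under 5 of 20 alternatives, namely after quantile normalisation, with array weights, without plus2 replicate 1 or 3 and with 2 groups alone in the fit (adjusted p down to 0.022). With plus2 COL1A1 was called without plus2 replicate 1 (adjusted p = 0.037). COL1A2 ranged from 4.59 to 4.82 over the 12 arrays. COL2A1, COL11A2 and COL27A1 each varied by at most 0.15 over the 12 arrays, with no call in any comparison. For COL27A1 this holds for the brighter of its transcript clusters. The dimmer one ranged from 4.43 to 5.02, and the mean of both clusters was not called either.

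Falls were seen for the anchoring fibril chain COL7A1 and the microfilament chain COL6A3. COL7A1 trimers tie basement membranes to the tissue beneath. Its signals were 5.58, 5.53 and 5.60 in control and 5.39, 5.41 and 5.40 with the archetype. With minus2 they were 5.39, 5.38 and 5.35, and with plus2 5.55, 5.57 and 5.49. The archetype and minus2 arrays lay below all control and plus2 arrays. COL7A1 fell with the archetype by 0.18 log2 units (SE 0.04, adjusted p = 0.0061) and with minus2 by 0.20 (SE 0.04, adjusted p = 0.0022, limma). Both calls held under the 20 alternatives in which the gene was tested. With plus2 the difference from control was -0.04 ± 0.04. Plus2 exceeded minus2 by 0.16 ± 0.04 (adjusted p = 0.0054) and the archetype by 0.14 ± 0.04 (adjusted p = 0.019). The second of these calls was lost without archetype replicate 1 or 3, without plus2 replicate 1 or 2, and with 2 groups alone in the fit.

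COL6A3 encodes the largest chain of type VI collagen. It gave 5.58, 5.55 and 5.60 in control, 5.40, 5.49 and 5.42 with the archetype mimic, 5.39, 5.48 and 5.31 with minus2, and 5.66, 5.54 and 5.61 with plus2. The archetype and minus2 arrays lay below the control arrays, and the plus2 arrays overlapped them. The fall with minus2 was -0.18 ± 0.05 (adjusted p = 0.018), lost without control replicate 3, minus2 replicate 1 or minus2 replicate 3 (up to 0.078). With the archetype the difference of -0.14 ± 0.05 had an adjusted p of 0.065. Plus2 exceeded minus2 by 0.21 ± 0.05 (adjusted p = 0.0066, limma) and the archetype by 0.17 ± 0.05 (adjusted p = 0.029), the latter lost under 6 of 20 alternatives, among them the omission of archetype or plus2 replicate 1 or 3. The partner chains COL6A1 and COL6A2, which join COL6A3 in the type VI monomer, were not called against control. Their genes lie on chromosome 21, and COL6A3 lies on chromosome 2. COL6A2 was higher with plus2 than with minus2 by 0.17 ± 0.05 (adjusted p = 0.018). That call was lost without minus2 replicate 2 or plus2 replicate 3 and with 2 groups alone in the fit. Without plus2 replicate 3 its difference between minus2 and control was called (adjusted p = 0.044). COL6A1 ranged from 6.49 to 6.82 over the 12 arrays and COL6A2 from 6.12 to 6.41.

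Among transmembrane and multiplexin chains the differences were smaller. COL13A1, a membrane-anchored chain found at cell adhesions and neuromuscular junctions, gave 7.06 on each control array. Its signals were 6.97, 6.99 and 6.94 with the archetype mimic, 7.15, 7.10 and 7.19 with minus2, and 7.09, 7.05 and 7.03 with plus2. The archetype arrays lay below and the minus2 arrays above all others. Neither passed against control (-0.09 ± 0.04 and 0.09 ± 0.04, adjusted p = 0.11 each), whereas minus2 exceeded the archetype by 0.18 ± 0.04 (adjusted p = 0.0046, limma).

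COL18A1, whose product is the source of the fragment endostatin, gave 5.79, 5.80 and 5.83 in control, 5.76, 5.77 and 5.76 with the archetype mimic, 5.72, 5.70 and 5.62 with minus2, and 5.81, 5.76 and 5.81 with plus2. The minus2 arrays lay below the other 9. COL18A1 fell with minus2 by 0.12 log2 units (SE 0.04, adjusted p = 0.030), and this call was lost under 8 of 21 alternatives, among them the omission of any control array or of minus2 replicate 2 or 3 (adjusted p up to 0.13). Plus2 exceeded minus2 by 0.11 ± 0.04 (adjusted p = 0.041), a call lost under 16 of 21 alternatives. COL15A1, the other multiplexin, was higher with plus2 than with the archetype by 0.15 ± 0.05 (adjusted p = 0.028). That call was lost without archetype or plus2 replicate 1 or 3 and with 2 groups alone in the fit. It was not called against control, except for the archetype without archetype replicate 2 (adjusted p = 0.047). It ranged from 4.64 to 4.89.

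**Figure D4:**
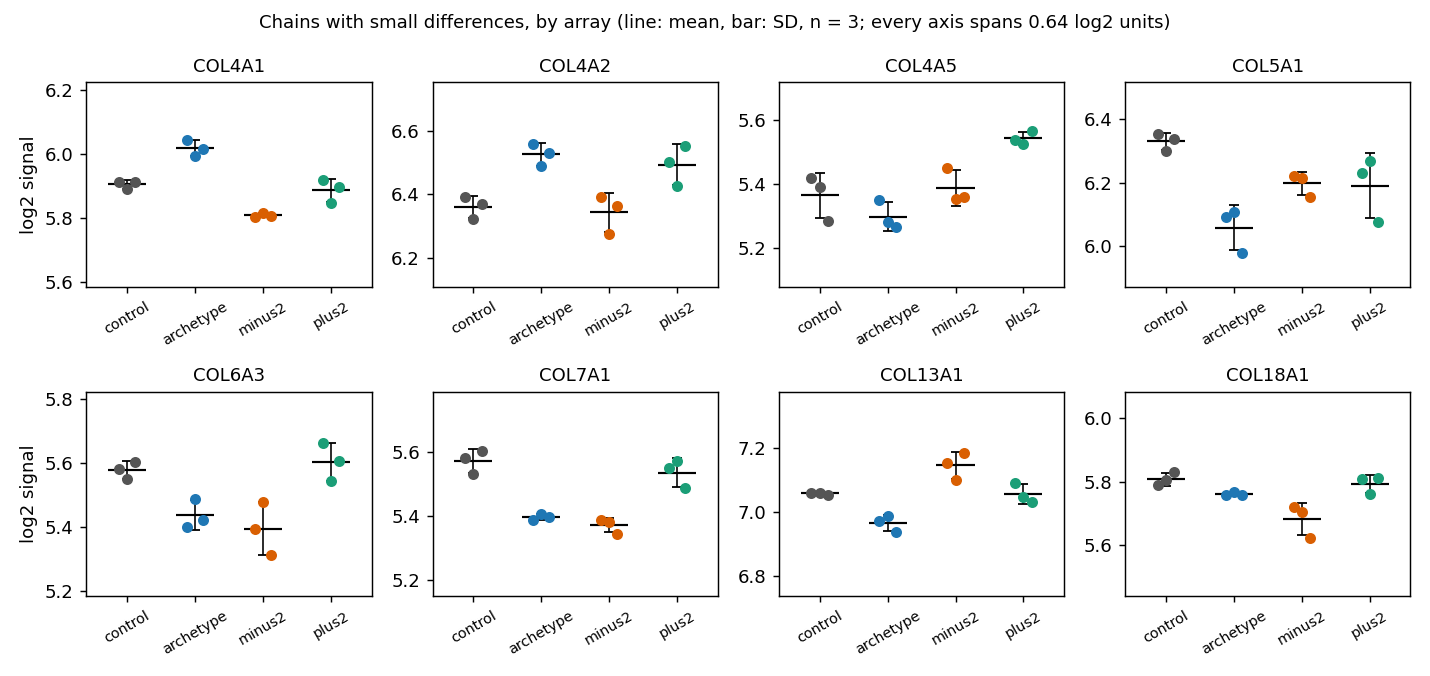
The log2 signal (y axis) of 8 chains with small differences on each of the 12 arrays, by group (x axis), with the mean as a line and the SD of 3 arrays as a bar. Each axis spans 0.64 log2 units. COL7A1 is lower with the archetype and minus2, COL5A1 is lower on every mimic array, and COL4A5 is highest with plus2, though the differences are below 0.3.

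The fibril-associated chains COL9A1, COL9A2, COL16A1 and COL20A1 and the transmembrane chain COL23A1 were not called in any comparison, except for COL9A2 between plus2 and the archetype without plus2 replicate 3 (adjusted p = 0.028). Types IX and XVI sit on the surface of thin fibrils in cartilage and skin. Over the 12 arrays COL9A1 ranged from 4.47 to 4.65, COL9A2 from 4.69 to 4.91 and COL16A1 from 4.89 to 5.06. COL20A1 ranged from 4.60 to 4.71 and COL23A1 from 5.23 to 5.39. COL12A1 was thus the 1 fibril-associated chain of 5 tested that was called. Of the 24 chains, 15 were called in no comparison with control, 6 in 1, 2 (COL7A1 and COL8A1) in 2, and COL12A1 in all 3. The 3 comparisons share the control arrays, so their calls are not independent of each other.

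The 17 chains below the floor had signals between 3.68 and 4.59, and their ranges over the 12 arrays had a median of 0.15 log2 units. They were COL4A3, COL4A6, COL5A2, COL5A3, COL6A5, COL6A6, COL8A2, COL9A3, COL10A1, COL11A1, COL14A1, COL19A1, COL21A1, COL22A1, COL24A1, COL25A1 and COL28A1. COL8A2, which encodes the partner chain of type VIII collagen, was among them, with 4.43, 4.38 and 4.33 in control and 4.35, 4.41 and 4.47 with the archetype. With no floor, when all 22411 genes were tested, none of the 17 was called by limma in any of the 6 comparisons, and 1 unadjusted p was under 0.05. The nearest chains on either side of the floor were COL9A1, with a mean of 4.57, and COL5A3, with 4.53. A signal below the floor does not show that a gene was silent.

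Genes that fold and modify procollagen were measured alongside. Of 18 tested, 1 rose and 5 fell with the archetype, 2 rose and 3 fell with minus2, and 3 rose and 6 fell with plus2 (33.3%, 27.8% and 50.0% called, beside 24.6%, 29.4% and 33.6% of all genes). P3H2, a prolyl 3-hydroxylase that acts on type IV collagen, rose with each mimic, by 1.42 ± 0.07, 0.93 ± 0.07 and 1.05 ± 0.07 log2 units for the archetype, minus2 and plus2 (adjusted p at most 1.7e-06, limma). The mimics keep this order in the values below. The median difference of these 18 genes was 0.00, -0.02 and -0.09, against 0.01, 0.01 and 0.00 over all genes. For plus2 that median was 0.00 after quantile normalisation (8 genes called) and -0.12 after centring (11 called). With the archetype the next largest changes were the falls of FKBP14 (-0.62 ± 0.07), PLOD2 (-0.57 ± 0.07) and P4HA1 (-0.50 ± 0.05). With minus2 MIA3, which helps load procollagen into vesicles, fell (-0.42 ± 0.07), whereas it rose with plus2 (0.25 ± 0.07). With minus2 a fall was also called for the prolyl 4-hydroxylase subunit gene P4HA2 (-0.33 ± 0.05), and COLGALT1 rose (0.17 ± 0.04). With plus2 PLOD2 (-0.68 ± 0.07), the galactosyltransferase gene COLGALT1 (-0.51 ± 0.04) and the collagen chaperone gene SERPINH1 (-0.43 ± 0.08) fell.

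Of 11 tested genes that trim or crosslink collagen, 4 were called with each mimic (36.4%, beside 24.6%, 29.4% and 33.6% of all genes), as 4 falls with the archetype and with minus2 and as 2 rises and 2 falls with plus2. The plus2 calls were 1 rise and 3 falls after centring and 2 and 3 after quantile normalisation. Falls with minus2 numbered 5 under either of these scalings. The medians of the 11 genes were -0.06, -0.11 and 0.02, against 0.01, 0.01 and 0.00 over all genes, and the plus2 median was -0.01 after centring or quantile normalisation. The crosslinking enzyme gene LOX fell with every mimic, with differences of -1.64, -1.03 and -1.31 log2 units (SE 0.08, adjusted p at most 1.9e-06). ADAMTS14, which removes the N-terminal propeptide, fell with the archetype (-0.53 ± 0.06) and with minus2 (-0.66 ± 0.06). The transglutaminase gene TGM2 fell with each mimic, with -0.78, -0.32 and -0.85 (SE 0.07, adjusted p at most 0.0057). The 2 rises with plus2 were those of LOXL4 (0.35 ± 0.05), which fell with the archetype (-0.24 ± 0.05), and BMP1 (0.16 ± 0.05). LOXL1 fell with minus2 (-0.68 ± 0.09) and was not called with the other mimics.

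Of 11 tested collagen receptor genes, 2 rose and 7 fell with the archetype and with minus2 (81.8% called), and 2 rose and 4 fell with plus2 (54.5%), beside 24.6%, 29.4% and 33.6% of all genes. After centring or quantile normalisation the falls with plus2 numbered 5, with 63.6% called. The medians of the 11 genes were -0.32, -0.25 and -0.06, against 0.01, 0.01 and 0.00 over all genes. ITGB1, the shared beta subunit of the collagen-binding integrins, fell with each mimic, with -1.94, -1.59 and -1.57 log2 units (SE 0.04, adjusted p at most 5.8e-10). ITGA2, an alpha subunit that pairs with it to bind collagen, fell with each as well, with -0.57, -0.42 and -0.34 (SE 0.09, adjusted p at most 0.0087). ADGRG1, an adhesion receptor that binds type III collagen, fell with -0.76, -0.46 and -0.51 (SE 0.10). ADGRG6, which binds type IV collagen, rose by 0.75, 0.17 and 0.70 (SE 0.04). ANTXR1 rose by 0.49, 0.22 and 0.64, while ANTXR2, which takes up type VI collagen, fell with -0.32, -0.46 and -0.22 (SE 0.04 for both). The discoidin receptor genes DDR1 and DDR2 were not called with any mimic.

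Of 12 tested genes of collagen degradation, 5 fell and none rose with the archetype, 4 fell and 1 rose with minus2, and 5 fell and none rose with plus2 (41.7% called each time, beside 24.6%, 29.4% and 33.6% of all genes). With minus2 the count was 6 after centring and 7 after quantile normalisation. Their medians were -0.13, -0.12 and -0.14, against 0.01, 0.01 and 0.00 over all genes. The list holds proteases and metalloproteinase inhibitors together. With the archetype the falls were those of MMP14, CTSB and the inhibitor genes TIMP1, TIMP3 and TIMP4. With minus2 MMP14, MMP15, PLAU and TIMP3 fell and MMP16 rose. The falls with plus2 were those of MMP14, CTSB, PLAU, TIMP1 and TIMP3. MMP14, a membrane collagenase, fell with each mimic, with -0.61, -0.76 and -0.61 log2 units (SE 0.05), and the metalloproteinase inhibitor gene TIMP3 with -0.74, -0.78 and -0.57 (SE 0.08, adjusted p at most 0.00019 for either gene). The interstitial collagenase gene MMP1 was not called with any mimic, with differences from control of -0.13 ± 0.07, 0.14 ± 0.07 and -0.03 ± 0.07. The counts of these 4 gene lists were recomputed under the other scalings but not with single arrays left out.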

How the data were processed

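The authors deposited log2 signals for the 12 arrays. Per the submitters' processing notes, Affymetrix Expression Console 1.4.1 and RMA were used, with their settings not stated there. That the scale is log2 was read from the values (1.79 to 19.9, array medians 4.73 to 4.80). Each array began with 100 ng of RNA, so the amount of RNA that each cell held is outside these measurements, and the number of arrays limits the precision.

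Of 67528 transcript clusters, 23781 carried 1 symbol in the platform annotation. Outdated symbols were updated through RefSeq (GRCh38.p14), used for names. Of a gene's clusters the brightest was kept. The 14940 genes above the lowest tertile of mean signal entered 1 linear model of all arrays (lmFit and eBayes of limma 3.58.1, R 4.3.3) and p-values were adjusted per comparison by Benjamini-Hochberg. The fit was tested on simulated data. Errors of differences are SEs. Chains called against control or in the F test are shown array by array. Of the gene lists, called genes with large changes are named, though not always those with the largest. The falls of CRTAP (-0.29 ± 0.06) and ITGA1 (-0.42 ± 0.10) with minus2, for example, are not described above. A few other genes were chosen after their values were seen (DDR1, DDR2, MMP1, COL8A2, COL1A1). The members and lists were chosen with earlier results of these data known. Signals of different genes are not comparable as levels. Alternatives covered scaling, floor, samples in the fit, array weights, prior, cluster choice, replicate block and leaving out each array. No permutation test was used for the pairwise comparisons, since 3 arrays against 3 are too few for one to reach the threshold.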

Additional observations from a re-analysis of the deposited data

How the results depend on the processing

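Of 32 calls of single chains over the 6 comparisons, 18 were kept under every alternative run in which the chain was tested and 14 were lost under at least 1. The calls of COL8A1 and COL12A1 were among those kept, and the rise of COL8A1 with the archetype ranged from 1.33 to 1.45 log2 units. No call reversed. Leaving out 1 array at a time gave counts of called chains of 4 to 6 for the archetype against control, 3 to 8 for minus2 and 1 to 4 for plus2. The same ranges were 3 to 5 for minus2 against the archetype, 3 to 7 for plus2 against the archetype, 4 to 8 for plus2 against minus2 and 9 to 10 for the F test. With only the 2 groups compared in the fit, 3 chains were called for plus2 against the archetype (7 with all groups) and 5 for plus2 against minus2 (8 with all groups). With genes above the median signal, where 9 chains were tested, these counts were 3 and 5. The replicate numbers were not taken to pair the arrays, since not every same-number pair correlated over 0.1. Same-number deviations correlated between -0.04 and 0.27, and 9 of 18 pairs were over 0.1, although 10 of 12 arrays correlated best with their own number. With the replicate block, 4 chains were called for plus2 against control instead of 2, and no other comparison moved by over 1.5 times. The cause of these shifts was not tested, and some of these settings also had fewer chains or arrays. Differences near 0.1 log2 units are close to the limit that 3 arrays a group allow.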
